A study of Mus musculus with 12 samples.

Results

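DNA replication and S-phase genes were followed in AML12 cells, an immortalized mouse hepatocyte line, exposed to copper and to a bile acid. The set held 49 genes chosen by their known role in copying DNA, in 11 role groups from the MCM helicase to fork protection, and all 49 were found among the 24824 genes of the expression table. Group A was untreated. Cells of group B were given CuCl2 at 300 μM together with elesclomol (ES), a small molecule that carries copper into cells, at 40 nM, a mixture called Cu/ES below. Group C was given the same Cu/ES and taurocholic acid (TCA), a conjugated bile acid, at 1000 μM. Group D was given TCA at 1000 μM and no Cu/ES. All groups were of the same line, with no genetic change described between them. Treatments lasted 24 h and each group had 3 libraries of polyadenylated RNA. Nothing in the labels ties the 3 libraries of a group to separate cultures, so the p-values below measure the spread between these libraries, which may be technical.

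Before S phase, the origin recognition complex, Cdc6 and Cdt1 load the ring of MCM subunits onto origins. At the start of S phase, Cdc45 and the GINS complex turn the loaded ring into an active helicase, the primase and polymerase alpha lay down primers, and polymerases delta and epsilon extend them while held by the PCNA clamp. Transcription factors of the E2F family switch on most of these genes as cells leave G1, and in adult liver the program is mostly silent until hepatocytes are driven to divide.

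Because E2F factors bind short sites near the start of these genes, the promoters of the members were read from RefSeq on assembly GRCm38.p6, from 250 bases before to 50 bases after the start site. The deposited values were made on a later assembly, GRCm39, so these coordinates serve the sequences only. An E2F motif was taken as TTTCCCGC, TTTGGCGC, TTTCGCGC or TTTGCCGC on either strand. Of the 41 members with a promoter in that table, 16 (39.0%) held at least 1 motif, against 704 of all 27025 promoters (2.6%) and 423 of the 8504 promoters of genes that entered the tests (4.97%). A motif is a match of letters and was not shown to be a bound site. The windows depend on the start site that RefSeq gives: for 24 of the 41 members GENCODE places an exon of the same gene within the 250 bases before it, coding in 4 (Dnmt1, Dut, E2f1 and E2f2), and 10 of the 16 members with a motif are among the 24. The 6 stretches that follow, 100 bases each, lie before the start site and outside every GENCODE exon. They are shown because they belong to members with different changes in expression, 4 with a motif and 2 without. They read 5′ to 3′ along the gene, with E2F motifs in capitals.
Mcm5 (chr8:75109310-75109409, plus strand): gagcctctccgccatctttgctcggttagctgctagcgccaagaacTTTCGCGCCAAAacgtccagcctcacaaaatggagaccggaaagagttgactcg
Mcm6 (chr1:128359762-128359861, minus strand): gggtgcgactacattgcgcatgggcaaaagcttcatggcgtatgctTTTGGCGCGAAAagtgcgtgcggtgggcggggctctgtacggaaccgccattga
Pola1 (chrX:93632240-93632339, minus strand): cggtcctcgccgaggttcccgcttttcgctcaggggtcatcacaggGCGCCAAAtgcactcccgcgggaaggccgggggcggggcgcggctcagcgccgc
Uhrf1 (chr17:56304082-56304181, plus strand): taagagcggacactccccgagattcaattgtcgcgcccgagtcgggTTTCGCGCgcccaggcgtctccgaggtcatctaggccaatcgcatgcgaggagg
Timeless (chr10:128237966-128238065, plus strand): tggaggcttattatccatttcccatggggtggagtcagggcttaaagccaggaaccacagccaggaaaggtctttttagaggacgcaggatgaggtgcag
Chaf1b (chr16:93883801-93883900, plus strand): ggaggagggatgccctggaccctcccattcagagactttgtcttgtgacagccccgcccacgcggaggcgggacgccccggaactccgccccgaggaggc
The capital run of Mcm5, and likewise that of Mcm6, is a pair of overlapping motifs on opposite strands. Neither the printed stretches of Timeless and Chaf1b nor the rest of their windows held one of these motifs.

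Expression was given in FPKM, a number of fragments divided by the exon length of the gene and by the library total. Library totals, worked out from the spacing of the FPKM values, ran from 38298854 to 39108516 reads in group A, from 30773749 to 32002321 in B, from 29115009 to 34912745 in C and from 39444417 to 39782139 in D. With Cu/ES the libraries differed from the others in composition: the 10 most abundant genes took 14.9 to 15.8% of the summed FPKM in group B and 15.5 to 15.8% in C, against 8.23 to 8.49% in A and 7.83 to 8.05% in D. Defining hepatocyte markers were near absent, with Alb, Apob, Hnf4a and Tat at 0 in every group A library and 7 of the 11 listed markers found in the table below 1 FPKM in all libraries of each group. The list still summed to 602 to 655 FPKM in A and 239 to 291 in B, mostly from the keratins Krt8 (means of 344 in A and 183 in B) and Krt18 (285 and 81.9), which other epithelial cells also express. The summed FPKM of the mesenchymal markers was 140 to 206 in group A and 3.44 to 5.76 in B. Most of it in A was Col3a1 (means of 138 in A and 2.2 in B), while Acta2 and Col1a2, below 1 FPKM, had higher means in B. The endothelial markers, all below 1 FPKM in group A, summed to 0.922 to 1.16 there. Their sum was 6.79 to 10.5 in B and 16.5 to 19.7 in C, mostly from Pecam1 (means of 6.85 and 16.1). In B and in C, 2 of the 4 endothelial markers were below 1 FPKM in all libraries. Cholangiocyte markers summed to 920 to 1000 FPKM in A and 1240 to 1400 in B, with 2 of 5 below 1 FPKM in all libraries of each group, and their members differed, with means of 673 in A and 1190 in B for Spp1 and of 268 and 77.3 for Krt19. Leukocyte markers summed to 72.5 to 102 in A and 25.6 to 29.9 in B, with 5 of 6 below 1 FPKM in both groups. The part of these shifts in the results below was not tested.

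The members were well measured in untreated cells. Mean levels in group A ran from 2.33 FPKM for Orc1 to 119 FPKM for Pcna, with a median of 16.2, and no member had fewer than 226 reads in any group A library. The smallest number of reads anywhere was 39, for Gins3 in group C. In total the 49 genes summed to 1020 to 1130 FPKM in group A, 1430 to 1500 in B, 1060 to 1130 in C and 993 to 1070 in D. In FPKM the sum was thus highest with Cu/ES alone, where the libraries did not overlap those of any other group. The median of the members' means was not highest there, at 11.5 FPKM in B, 8.49 in C and 16.9 in D. Within groups, library A2 was the highest of its 3 in 37 of the 49 members (38.7% of all genes tested) and D2 in 33 (39.8% of all genes tested).

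The comparison of groups B and A asked what copper with its ionophore did to the replication program. Under Cu/ES it split. On the log2(FPKM + 1) scale, which understates the change of genes with low FPKM, limma with Benjamini-Hochberg adjustment over 10615 genes found 20 members higher and 24 lower at an adjusted p below 0.05, with 5 not passing. Among all genes tested, 20.1% were higher and 72.0% lower, and the median gene stood at -1.10 against -0.22 for the members, of which 38 of 49 lay above the median gene. With the added requirement of a log2 fold change beyond 1, 12 members were higher (10.1% of all genes) and 12 lower (53.0%). A fit with the replicate number as a block gave 20 members higher and 26 lower at an adjusted p below 0.05. Where the shift of the median gene was scaled away, the split moved, to 35 higher and 8 lower members with median-ratio scaling (median of all genes -0.03) and to 35 and 10 with quantile normalization (-0.10). Calls made in 1 direction under FPKM, TPM, median-ratio scaling, quantile normalization, limma-voom on recovered reads and a fit with a replicate block numbered 17 rises and 7 falls among the members, against 14.7% and 37.5% of all genes. The 17 were Mcm2, Mcm3, Mcm4, Mcm5, Mcm7, Orc1, Cdc6, Gmnn, Mcm10, Cdc45, Pcna, Rpa1, Rpa2, Pola1, Fen1, Rrm2 and Chaf1b, and the 7 were Orc2, Rfc1, Rfc2, Rfc5, Rpa3, Pold2 and Tk1. In these bulk samples, fewer cells in S phase and less of a transcript per cell cannot be told apart.

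**Figure D1:**
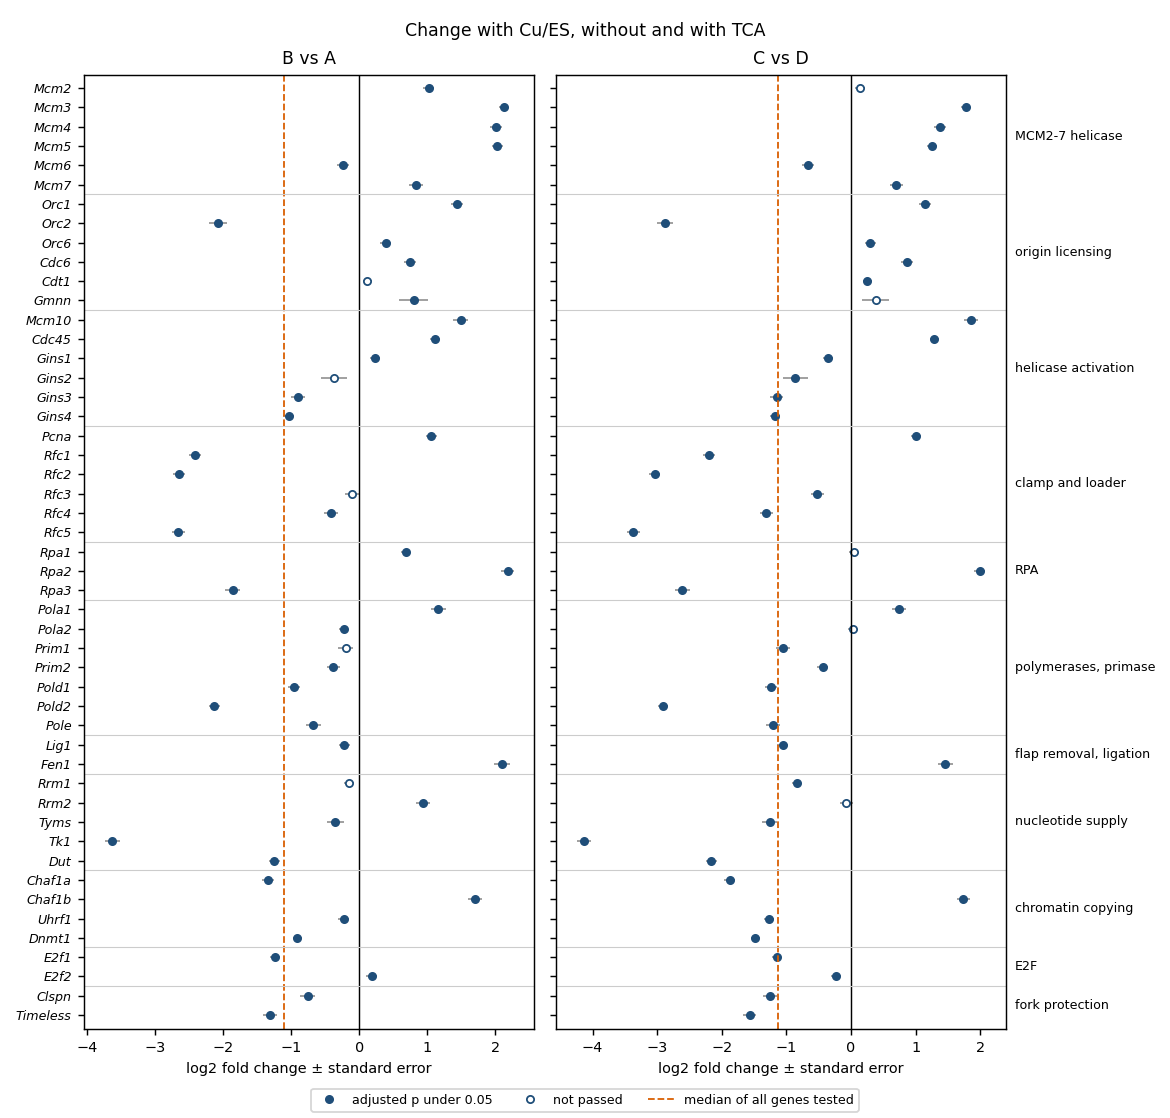
Log2 fold change on the log2(FPKM + 1) scale of each of the 49 members with Cu/ES, in the absence of TCA (B vs A, left) and in its presence (C vs D, right); points are estimates, bars are standard errors, filled points passed an adjusted p of 0.05, and the dashed line is the median of all genes tested. Members of 1 complex lie far apart, as Rpa2 at 2.18 and Rpa3 at -1.86 in the left panel.

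Helicase genes rose with Cu/ES. Of the 6 subunits of the MCM ring, which unwinds the double helix, Mcm2, Mcm3, Mcm4, Mcm5 and Mcm7 rose under every scaling, with log2 fold changes of 0.83 to 2.12, and Mcm6 fell in FPKM but was higher by 1.0 with median-ratio scaling and by 0.37 with quantile normalization. Mcm3 was at 38.3, 41.8 and 39.2 FPKM in group A, 177, 179 and 174 in B, 126, 132 and 122 in C and 34.8, 39.9 and 34.4 in D. Groups B and C thus lay far above both groups without Cu/ES, and C lay below B in every library. Its log2 fold change in B vs A was 2.12 ± 0.07 (standard error, adjusted p = 8.65e-13), a 4.44-fold ratio of the means. Mcm6 was at 27.6, 31.2 and 27.0 FPKM in group A, 23.8, 23.9 and 24.5 in B, 17.1, 17.5 and 15.6 in C and 25.3, 31.5 and 24.8 in D. The fall in B was small (-0.24 ± 0.09, adjusted p = 0.0232), the groups did not overlap, and the call was lost without library A2 (adjusted p = 0.105), B1 (0.0554) or B2 (0.0506). Both genes carry E2F motifs, with 3 in the Mcm6 promoter.

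Most of the members that license origins rose as well, while Orc2 fell. Of 6 licensing genes, 4 rose (Orc1, Orc6, Cdc6 and Gmnn), Orc2 fell and Cdt1 did not pass (0.12 ± 0.07, adjusted p = 0.115). Cdt1 was at 1.37 with median-ratio scaling and at -0.24 in TPM. Orc1, the large ATP-binding subunit of the origin recognition complex, was at 1.96, 2.53 and 2.49 FPKM in group A, 7.59, 8.23 and 8.16 in B, 7.34, 6.88 and 7.51 in C and 3.09, 2.67 and 2.38 in D. Every library with Cu/ES was above every library without it, and the change in B vs A was 1.44 ± 0.09 (adjusted p = 1.79e-09). Orc2, a partner subunit of the same complex, was at 10.5, 10.3 and 11 FPKM in group A, 2.22, 1.97 and 1.14 in B, 1.27, 1.71 and 1.37 in C and 17.8, 16.0 and 17.0 in D. Every library with Cu/ES was below every library without it, with a change of -2.08 ± 0.13 (adjusted p = 9.13e-10). Of the subunits outside the 49 members, Orc3 and Orc5 had lower means in B (1.5 and 0.263 FPKM) than in A (7.98 and 10.3). Orc4 did not, with 8.34 in B and 7.13 in A. Gmnn, the geminin that holds Cdt1 in check, varied most among libraries, with B2 at 29.8 FPKM beside 18.2 and 19.7.

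The factors that activate the helicase were divided. In FPKM Mcm10, Cdc45 and Gins1 rose. Gins1 was at -0.11 in TPM and at 1.38 with median-ratio scaling. Gins3 and Gins4 fell in FPKM (Gins3 was at 0.46 with quantile normalization). Gins2 did not pass (-0.37 ± 0.19, adjusted p = 0.0852, but 0.0489 with the replicate number as a block). Thus in FPKM the 4 subunits of the GINS complex, which act as a unit, did not share a direction. Mcm10, which helps the helicase to start, was at 5.02, 5.66 and 4.57 FPKM in group A, 15.4, 17.1 and 15.7 in B, 23.0, 18.3 and 20.9 in C and 4.20, 6.03 and 4.80 in D. It rose by 1.49 ± 0.11 in B vs A (adjusted p = 1.09e-08) and was higher again in every library of group C. Gins4 was at 20.0, 22.1 and 20.5 FPKM in group A, 10.3, 9.12 and 9.39 in B, 7.38, 8.32 and 7.65 in C and 16.8, 19.8 and 20.0 in D. The Cu/ES libraries were all below the others (-1.04 ± 0.08, adjusted p = 1.57e-08), but with median-ratio scaling the value was 0.16 and with quantile normalization -0.10.

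PCNA and the complex that loads it parted ways. Pcna rose under every scaling, whereas of the 5 subunits of its loader, replication factor C, Rfc1, Rfc2 and Rfc5 fell under every scaling, Rfc4 fell in FPKM but was higher by 0.80 with median-ratio scaling and by 0.38 with quantile normalization, and Rfc3 did not pass (-0.11 ± 0.10, adjusted p = 0.307). Pcna was the most abundant member in each group, at 110, 132 and 116 FPKM in A, 238, 246 and 266 in B, 256, 272 and 252 in C and 126, 137 and 122 in D. Its 6 Cu/ES libraries stood apart from the 6 others, with a change of 1.06 ± 0.08 (adjusted p = 5.38e-09) in B vs A. Rfc5 was at 19.2, 20.2 and 17.8 FPKM in group A, 2.59, 2.22 and 1.77 in B, 1.21, 1.03 and 0.877 in C and 19.9, 20.5 and 19.6 in D. This was an 8.71-fold lower mean in B than in A (-2.66 ± 0.10, adjusted p = 4.45e-12), with no overlap. Rfc1 fell to 1.25, 1.87 and 1.53 FPKM in B from 12.8, 13.0 and 12 in A.

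Replication protein A, the trimer that coats single-stranded DNA, was split within itself. Rpa1 and Rpa2 rose and Rpa3 fell, each under every scaling. Rpa2 was at 10.3, 13.6 and 10.5 FPKM in group A, 53.2, 53.1 and 59.3 in B, 42.9, 46.3 and 48.2 in C and 10.6, 11 and 10.6 in D. With a change of 2.18 ± 0.09 (adjusted p = 1.63e-11) it had the largest rise of the 49 members in FPKM. Rpa3, the smallest subunit, was at 32.5, 30.6 and 32.6 FPKM in group A, 6.68, 8.72 and 9.02 in B, 5.01, 4.62 and 4.03 in C and 36.8, 29.4 and 32.8 in D. Its Cu/ES libraries lay below all others (-1.86 ± 0.11, adjusted p = 5.48e-10).

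Among the 7 polymerase and primase genes, only Pola1 rose with Cu/ES in FPKM, while Pola2, Prim2, Pold1, Pold2 and Pole fell and Prim1 did not pass (-0.20 ± 0.11, adjusted p = 0.110). Of these falls, that of Pold2 was called under every scaling, while Pola2 (0.92 and 0.97), Prim2 (0.73 and 0.92), Pold1 (0.17 and 0.31) and Pole (0.33 and 0.71) had the opposite sign with median-ratio scaling and quantile normalization. Pola1, the catalytic subunit of polymerase alpha, was at 8.19, 8.6 and 7.13 FPKM in group A, 19.0, 18.4 and 19.6 in B, 12.2, 9.59 and 11.9 in C and 5.81, 7.49 and 5.70 in D. Group B was highest, C was between B and the groups without Cu/ES, and the change in B vs A was 1.16 ± 0.11 (adjusted p = 1.20e-07). Pold2, an accessory subunit of polymerase delta, was at 41.1, 44.4 and 45.9 FPKM in group A, 9.0, 9.20 and 9.48 in B, 4.34, 5.26 and 4.40 in C and 40.9, 40.1 and 43.7 in D. It fell by 2.13 on the log2 scale (standard error 0.08, adjusted p = 2.96e-12), and group C was lower again without overlap.

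The pair that finishes Okazaki fragments on the lagging strand diverged too. Fen1, the nuclease that trims flaps, was at 7.82, 12 and 9.01 FPKM in group A, 42.7, 44.4 and 44.7 in B, 34.0, 34.4 and 34.7 in C and 10.9, 13.7 and 11.3 in D. It rose by 2.10 ± 0.12 (adjusted p = 2.89e-10), and every Cu/ES library was above every other. Lig1, the ligase that seals the nicks, was at 24.1, 27.2 and 23.5 FPKM in group A, 20.6, 23.1 and 20.2 in B, 8.53, 10.2 and 9.15 in C and 19.8, 21.4 and 20.0 in D. Groups A and B nearly touched (-0.22 ± 0.08, adjusted p = 0.0239), the sign turned with median-ratio scaling (1.01) and quantile normalization (0.46), and the call was lost without A2 (adjusted p = 0.112), B1 (0.0711) or B3 (0.0874). Group C was the lowest of the 4.

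Genes of nucleotide supply held the largest fall. Tk1, the thymidine kinase of the salvage route, was at 32.7, 38.2 and 33.4 FPKM in group A, 1.76, 2.34 and 1.60 in B, 0.875, 0.957 and 0.805 in C and 31.6, 35.9 and 29.3 in D. Its mean was 18.3-fold lower in B than in A (-3.63 ± 0.11, adjusted p = 5.20e-13), the largest fall of the 49 members, and C was below B in every library. Rrm2, the small subunit of ribonucleotide reductase, was at 43.4, 49.9 and 44.5 FPKM in group A, 84.0, 94.0 and 88.6 in B, 41.8, 53.7 and 40.2 in C and 46.8, 50.4 and 44.1 in D. Group B alone was high (0.94 ± 0.10, adjusted p = 4.71e-07), and the other 3 groups overlapped. Dut and Tyms, the enzymes that remove dUTP and make dTMP, fell in FPKM (-1.25 ± 0.08 and -0.35 ± 0.12). With median-ratio scaling Dut was at -0.02 (adjusted p = 0.863). Tyms was higher by 0.64 with median-ratio scaling and by 1.03 with quantile normalization. Rrm1, the large reductase subunit, did not pass (-0.15 ± 0.07, adjusted p = 0.0722), but did with the replicate number as a block (adjusted p = 0.0264). Its sign turned with median-ratio scaling (1.11) and quantile normalization (0.24).

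In the machinery that copies chromatin, the subunits of chromatin assembly factor 1, which places histones behind the fork, went opposite ways. Chaf1b was at 5.17, 6.72 and 4.67 FPKM in group A, 18.9, 20.7 and 20.2 in B, 15.3, 15.0 and 15.2 in C and 3.84, 4.13 and 3.57 in D. Chaf1a was at 23.1, 23.1 and 21.9 FPKM in group A, 8.05, 8.98 and 8.05 in B, 6.46, 5.58 and 4.90 in C and 22.3, 25.2 and 22.7 in D. The rise of Chaf1b was 1.70 ± 0.10 (adjusted p = 5.91e-10) and held under every scaling, and the fall of Chaf1a was -1.34 ± 0.09 (adjusted p = 1.95e-09) and shrank to -0.15 with median-ratio scaling (adjusted p = 0.149). Uhrf1, which finds hemimethylated DNA, was at 43.8, 47.7 and 43.2 FPKM in group A, 36.3, 41.0 and 37.2 in B, 16.8, 16.4 and 15.6 in C and 36.3, 45.7 and 40.1 in D. Its fall in B was small (-0.23 ± 0.08, adjusted p = 0.0174) and turned in sign with median-ratio scaling (1.03, adjusted p = 3.60e-08) and quantile normalization (0.11, adjusted p = 0.321), and group C was far below the rest. Dnmt1, the methyltransferase that Uhrf1 recruits, fell in FPKM by 0.91 on the log2 scale (standard error 0.07) but was higher by 0.34 with median-ratio scaling (adjusted p = 0.000172).

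Of the E2F factors themselves, E2f1 was at 15.8, 16.3 and 16.5 FPKM in group A, 6.43, 5.88 and 6.55 in B, 4.30, 4.88 and 4.19 in C and 11.5, 11.2 and 10.6 in D. The order was A, D, B and C, with no overlap between neighbours, and the change in B vs A was -1.24 ± 0.07 (adjusted p = 7.29e-10), or -0.07 with median-ratio scaling. E2f2 was at 5.69, 5.66 and 5.68 FPKM in group A, 5.98, 6.83 and 6.92 in B, 5.09, 5.15 and 5.15 in C and 6.63, 5.95 and 5.95 in D. Its change was the smallest among the rises in FPKM (0.18 ± 0.08, adjusted p = 0.0361). It turned to -0.15 in TPM (adjusted p = 0.12) but was 1.28 with median-ratio scaling (adjusted p = 2.96e-09). The fork protection genes Timeless and Clspn both fell in FPKM. Timeless was at 5.35, 5.55 and 5.24 FPKM in group A, 1.60, 1.85 and 1.28 in B, 0.937, 0.992 and 0.727 in C and 4.41, 4.95 and 4.43 in D, and Clspn, an adaptor of the replication checkpoint, was at 5.11, 6.17 and 5.08 in A, 2.51, 3.35 and 2.62 in B, 1.25, 1.56 and 1.35 in C and 4.24, 5.30 and 4.47 in D. Both were lowest in group C. Their changes in B vs A were -1.31 ± 0.10 and -0.76 ± 0.11 (adjusted p = 6.10e-09 and 1.22e-05). With quantile normalization they were 0.08 and 0.63, and with median-ratio scaling -0.36 and 0.26.

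**Figure D2:**
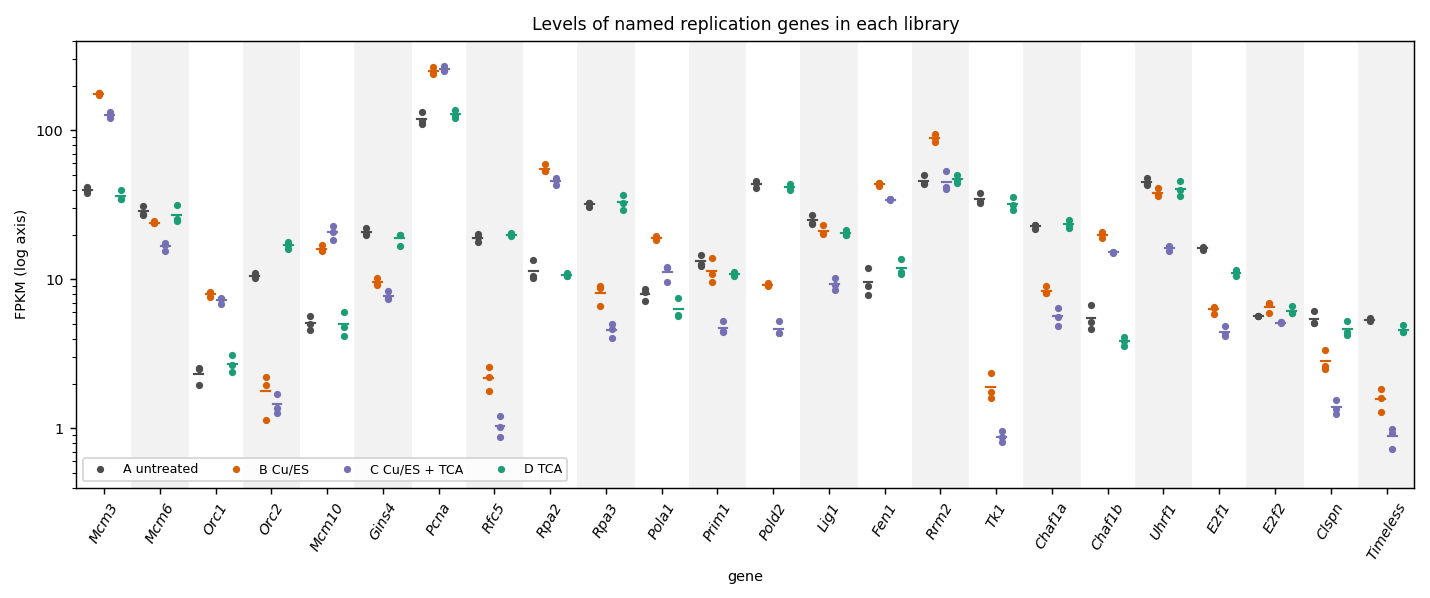
FPKM (log axis) of 24 members in each of the 12 libraries, by group; points are libraries and short lines are group means. Tk1, Rfc5 and Orc2 lie low in the Cu/ES groups B and C, Mcm3, Rpa2 and Fen1 lie high there, and for Lig1, Prim1 and Uhrf1 group C lies below the other 3 groups.

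A comparison of groups C and D asked the same question of Cu/ES in cells that all had TCA, with libraries that B vs A did not use. There, 15 members were higher (20.9% of all genes tested) and 29 lower (71.5%) by limma, with a median of -0.67 against -1.13 for all genes. The log2 fold changes had the same sign in both Cu/ES comparisons for 45 of the 49 members and for 9960 of the 10615 genes tested. Across the members their Pearson correlation was 0.97, and across all genes tested 0.953; genes are not independent replicates. Past both thresholds C vs D had 10 members higher (11.2% of all genes) and 22 lower (53.3%). Those past them in both Cu/ES comparisons were 10 higher and 12 lower, against 926 and 5124 of the 10615 genes tested. With median-ratio scaling C vs D gave 26 higher and 15 lower members, and with quantile normalization 24 and 13, by the adjusted p only. Past both thresholds, 25.9% of all genes were higher and 27.2% lower with the former, and 21.4% and 23.1% with the latter.

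Because subunits of 1 complex are needed together, ratios between members were taken within each library, where the library's scaling cancels. The pairs were chosen after their values were seen and are given as a description. Rpa2 was 0.315 to 0.444 times as high as Rpa3 in group A, 6.09 to 7.97 times in B, 8.57 to 12 times in C and 0.289 to 0.374 times in D, so the more abundant transcript of the pair, per length, changed with Cu/ES. The ratio of Pcna to Rfc5 was 5.71 to 6.54 in group A, 91.7 to 151 in B, 211 to 288 in C and 6.24 to 6.67 in D. For Mcm3 over Mcm6, the ratio was 1.34 to 1.45 in A, 7.09 to 7.50 in B, 7.39 to 7.86 in C and 1.26 to 1.39 in D. For each of these 3 pairs groups A and D overlapped, and both Cu/ES groups lay above them. Orc1 over Orc2 went from 0.187 to 0.247 in A to 3.41 to 7.16 in B, and Chaf1b over Chaf1a from 0.213 to 0.291 in A to 2.31 to 2.52 in B. The ratio of Fen1 to Lig1 was 0.324 to 0.440 in A, 1.92 to 2.22 in B, 3.37 to 3.98 in C and 0.548 to 0.638 in D.

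**Figure D3:**
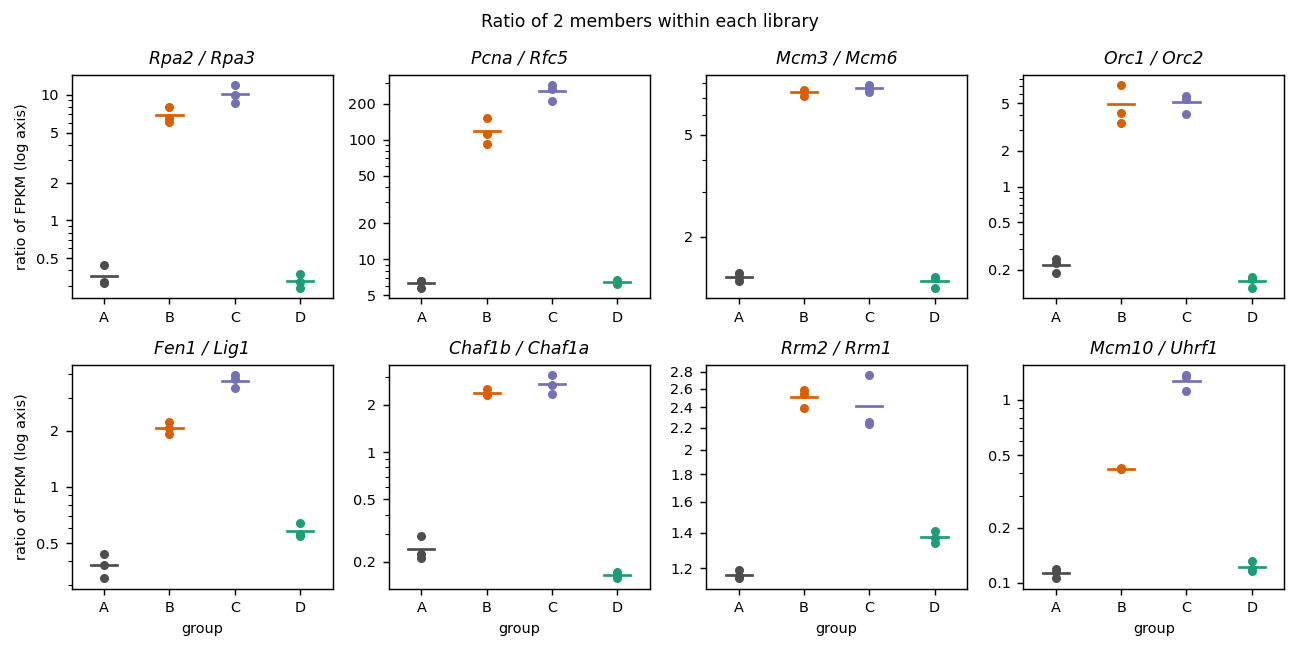
Ratio of the FPKM of 2 members within each library (log axes, each panel with its own range) for 8 pairs chosen after their values were seen; points are libraries and lines are group means. In each panel the libraries with Cu/ES (B and C) lie above those without (A and D), as 6.09 to 7.97 in B against 0.315 to 0.444 in A for Rpa2 over Rpa3.

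The comparison of groups C and B asked what TCA did in cells under Cu/ES. Replication genes were lower in group C almost throughout: 39 of the 49 members fell, 1 rose and 9 did not pass at an adjusted p below 0.05 by limma, where 23.6% of all genes tested fell and 20.4% rose. The members' median was -0.53, the median of all genes -0.03, and 44 of the 49 lay below the latter. Under each of the 6 scalings and fits named above, 33 of the falls and the 1 rise, of Mcm10, were called, against 17.3% and 17.5% of all genes. Falls were moderate, between -0.26 and -1.18, and 3 members, Uhrf1, Lig1 and Prim1, passed both thresholds as lower (1.16% of all genes) and 0 as higher (1.13%). In 40 members all 3 libraries of group C were below all 3 of B, as in 27.2% of all genes tested.

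By role, the 6 MCM subunits, the 3 subunits of replication protein A and the 5 genes of nucleotide supply all fell in C vs B, as did the 4 genes of chromatin copying, both lagging-strand genes, both E2F genes and both fork protection genes. Of the 6 origin licensing genes 5 did not pass, with Orc1, Orc2, Orc6, Cdc6 and Cdt1 between -0.16 and -0.06, and Gmnn alone fell (-0.64 ± 0.21, adjusted p = 0.0237) although its groups overlapped. In the list of other origin genes, 11 of 13 fell, Orc3 (-0.52 ± 0.08) and Orc4 (-0.34 ± 0.09) among them. Outside licensing, Cdc45 (0.09 ± 0.07), Pcna (0.06 ± 0.08), Rfc1 (0.13 ± 0.09) and Pola2 (0.16 ± 0.07) did not pass either. Uhrf1 fell by 1.18 on the log2 scale (standard error 0.08, adjusted p = 6.47e-07), from 36.3 to 41.0 FPKM in B to 15.6 to 16.8 in C. For Lig1 the change was -1.11 ± 0.08 (adjusted p = 9.35e-07). Prim1, the catalytic subunit of the primase, was at 12.7, 14.6 and 12.3 FPKM in group A, 9.61, 14.0 and 10.8 in B, 5.24, 4.52 and 4.46 in C and 10.5, 11.3 and 10.8 in D. Group C lay below the 3 other groups, which overlapped in part, and the change in C vs B was -1.11 ± 0.11 (adjusted p = 7.14e-06). Mcm10 rose by 0.34 ± 0.11 (adjusted p = 0.0272), a call lost without library B1, C1 or C3.

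Relative to untreated cells, members ended at different places in group C in FPKM, though C and A were not tested against each other. Rrm2 and Rpa1, at 40.2 to 53.7 and 44.7 to 48.8 FPKM in C, were back in or near the range of group A, 43.4 to 49.9 and 46.6 to 51.7. Mcm3, Rpa2, Fen1 and Chaf1b stayed above group A in every library. Tk1, Rfc5, Lig1, Uhrf1 and Clspn lay below both A and B in every library. With median-ratio scaling, Rrm2 and Rpa1 were at 2.2 and 1.95 in B vs A and at -0.96 and -0.71 in C vs B. Lig1 and Uhrf1 were at 1.01 and 1.03 in B vs A and at -1.13 and -1.19 in C vs B. The place of these genes against group A thus depends on the scaling, while Tk1 (-2.55 and -0.72) and Rfc5 (-1.58 and -0.74) fell in both comparisons.

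Few members passed the test with TCA alone. In D vs A, 2 members were higher (10.5% of all genes tested), 7 lower (11.5%) and 40 did not pass, and no member passed both thresholds, which 0.0659% and 0.151% of all genes did. The median change was -0.09 for the members and -0.01 for all genes. Calls under every scaling and fit were 1 rise, of Orc2, and 2 falls, of E2f1 and Chaf1b. E2f1 ranged over 15.8 to 16.5 FPKM in A and 10.6 to 11.5 in D (-0.51 ± 0.07, adjusted p = 0.000634). Chaf1b ranged over 4.67 to 6.72 FPKM in A and 3.57 to 4.13 in D (-0.42 ± 0.10, adjusted p = 0.0104), and Orc2 over 10.3 to 11 and 16.0 to 17.8 (0.63 ± 0.13, adjusted p = 0.00416). For each of the 3 the groups did not overlap. Mcm2 (0.25 ± 0.08) was the other rise, and Cdt1, Prim2, Pold1, Lig1 and Dnmt1 the other falls, between -0.24 and -0.32. The number of falls was unstable, at 3 without A1, 4 without A2, 3 without A3, 2 without D1, 4 without D3, and 12 without the library numbered 2 of every group.

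**Figure D4:**
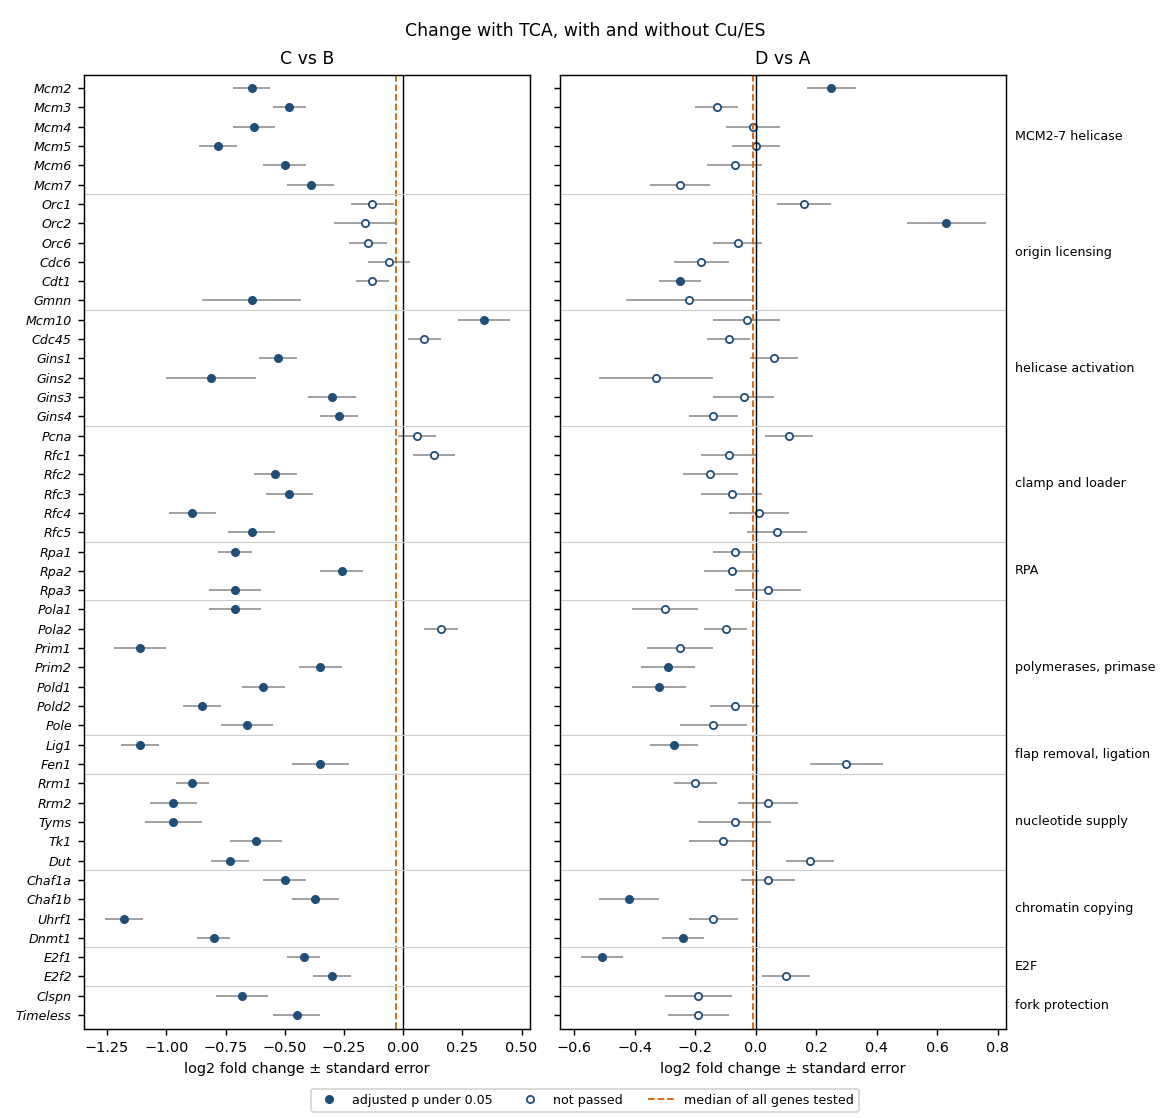
Log2 fold change on the log2(FPKM + 1) scale of each member with TCA, in the presence of Cu/ES (C vs B, left) and in its absence (D vs A, right); points are estimates, bars are standard errors, filled points passed an adjusted p of 0.05, and the dashed line is the median of all genes tested. The 2 panels have different axis ranges: on the left 39 of 49 members passed as lower, on the right 7.

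The difference between the effects of TCA with and without Cu/ES was tested as an interaction, (C - B) - (D - A). It was negative, meaning that the change with TCA was lower with Cu/ES than without, for 29 members and positive for 0 at an adjusted p below 0.05, against 19.8% and 17.7% of all genes tested. The median was -0.43 for the members and 0 for all genes, and 22 of the negative calls were made under every scaling and fit (13.1% of all genes). All 5 genes of nucleotide supply and 5 of the 6 MCM subunits were among the 29, whereas 1 of 6 licensing genes (Orc2) and 1 of 6 activation genes (Gins1) were. The largest differences were those of Uhrf1 (-1.04 ± 0.12, adjusted p = 4.86e-05) and Rrm2 (-1.01 ± 0.14, adjusted p = 0.000181), the 2 members past both thresholds (1.73% of all genes were so as negative and 1.75% as positive). Orc2 entered through its rise in D vs A, since its change in C vs B did not pass (-0.16 ± 0.13, adjusted p = 0.329).

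Members with and without an E2F motif were set side by side, as a description. In B vs A the 16 with a motif had a median of 0.01 and ranged from -0.96 (Pold1) to 2.12 (Mcm3), 7 rising and 7 falling, and none lay below the median of all genes. For the 25 without a motif the median was -0.23 and the range -3.63 (Tk1) to 2.18 (Rpa2), 10 rising, 13 falling and 10 lying below the median of all genes. Of the printed stretches, those with motifs thus belong to Mcm5, which rose strongly (2.03), and to Pola1, which rose less. They also belong to Mcm6 and Uhrf1, which were lower in FPKM but higher with median-ratio scaling. Those without belong to a gene that rose (Chaf1b) and to a gene that fell in FPKM and with median-ratio scaling (Timeless). With quantile normalization Timeless did not fall. In C vs B all 16 members with a motif lay below the median of all genes and 13 fell, with a median of -0.49, and of the 25 without a motif 20 lay below it and 18 fell, with a median of -0.50. Among all genes tested, those with an E2F motif had a median of -0.93 in B vs A (423 genes) and those without of -1.11 (8081 genes). Of the 423 genes 86 rose and 296 fell in B vs A, and of the 8081 genes 1602 and 5848. In C vs B, 66 of the 423 rose and 135 fell, and 1694 and 1914 of the 8081. Other motifs, on either strand, were CCAAT in 65.9% of the members' windows (41.1% of all windows and 43.5% of those of genes tested), TTTGAA in 17.1% (20.2% and 14.0%), the metal response motifs TGCGCCC or TGCACCC in 17.1% (9.08% and 12.5%) and a heat shock element in 2.44% (0.662% and 0.576%).

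Other genes of the same pathways came from lists with 79 further names, of which 74 were tested. With Cu/ES in FPKM they were called higher and lower in shares close to those of all genes. In B vs A 15 were higher (20.1% of all genes tested) and 51 lower (72.0%), with a median of -0.88, nearer to that of all genes (-1.10) than that of the 49 members was. Orc5, a further subunit of the origin recognition complex, was lowest, with 10.4, 10.3 and 10.2 FPKM in untreated cells and 0.123, 0.326 and 0.339 in group B (-3.17 ± 0.08, adjusted p = 2.44e-13). Hat1, which acetylates new histones, was highest, at 53.0, 57.0 and 54.9 FPKM in A and 273, 291 and 289 in B (2.35 ± 0.06, adjusted p = 3.43e-13). Top1, which relieves twist ahead of the fork, also rose (2.10 ± 0.06), as did Nme1, Rad9a, Lin52 and Donson (0.69 to 1.54), while Rbl2, Tk2, Tipin, Ctc1 and Ssrp1 fell (-1.89 to -3.13). In C vs B, 3 of the 74 rose (20.4% of all genes tested) and 40 fell (23.6%), with a median of -0.32. The 5 past both thresholds were Pclaf, a PCNA partner (-1.88 ± 0.12), Rnaseh2c (-1.62 ± 0.10), Chtf18 of the alternative clamp loader (-1.16 ± 0.11), Dtymk, which makes dTDP (-1.15 ± 0.11), and Mthfd1 of folate metabolism (-1.01 ± 0.07).

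Of 30 genes of G2 and mitosis, 0 rose (20.1% of all genes tested) and 28 fell (72.0%) in B vs A, with a median of -2.10, below that of all genes, and Aurkb, a mitotic kinase, had the largest fall, from 41.5, 37.6 and 44.4 FPKM in A to 0.957, 0.962 and 0.552 in B (-4.54 ± 0.12, adjusted p = 1.95e-13). Tpx2, a spindle assembly factor, was at 48.3, 47.1 and 49 FPKM in A and 48.8, 49 and 48.7 in B (0.02 ± 0.06, adjusted p = 0.724). In C vs B 23 of these 30 fell (23.6% of all genes tested) and 0 rose (20.4%), and their median of -0.53 equalled that of the 49 members, with Top2a, Hmmr, Kif11 and Bub1 past both thresholds. Among 13 cyclins, kinases and inhibitors of the passage from G1 to S phase, 3 rose and 9 fell in B vs A, against 20.1% and 72.0% of all genes tested. Ccnd1, cyclin D1, was at 67.0, 99.5 and 70.4 FPKM in A and 2.39, 2.83 and 2.31 in B (-4.49 ± 0.17, adjusted p = 4.57e-12). Cdkn1c, the inhibitor p57, was at 3.74, 3.76 and 4.10 FPKM in A, 25.6, 30.9 and 25.8 in B and 85.2, 134 and 87.8 in C. It thus rose in B vs A (2.54 ± 0.14, adjusted p = 2.28e-10) and once more in C vs B (1.84 ± 0.14, adjusted p = 9.66e-07).

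Across the 49 genes, Spearman's rho between the change in B vs A and the level in group A was -0.11 and with exonic length 0.02 (-0.09 and -0.06 over all genes tested), and in C vs B rho with the level was -0.37 (-0.21 over all genes). For 15 members an exon of a gene on the opposite strand overlaps in the GENCODE annotation of GRCm38, over more than 10% of the exonic bases in 8 (Chaf1a, Fen1, Gins2, Orc1, Orc2, Rfc2, Rfc4 and Rfc5). Whether counting used the strand is not given in the sources used here, so within such overlaps reads of the 2 genes cannot be told apart. The exons of this annotation are not those behind the deposited values. For Chaf1a 4648 bases overlap, more than the exonic length of 3308 bases worked out from the FPKM values, and for Gins2 2758 against 1038.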

How the data were processed

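RNA of 12 AML12 libraries, 3 in each of 4 groups, was compared; groups and doses came from the sample labels. The authors deposited FPKM per library for 24824 gene symbols. The submitters' processing notes name fastp, HISAT2, HTSeq and GRCm39, without versions or roles; how strand was treated in counting is not given in the sources used here. The authors tested counts with DESeq2. Since the deposited unit is FPKM, limma 3.58.1 (R 4.3.3) was used in its place, on log2(FPKM + 1), for genes with a mean of at least 1 FPKM (10615 genes, all 49 members among them). A single fit of all 12 libraries had group as its only term, a mean-variance trend and 8 residual degrees of freedom. P-values were two-sided and Benjamini-Hochberg adjusted over all genes tested. Calls were made at an adjusted p below 0.05, and also with an absolute log2 fold change above 1. Exact permutation tests of single members, 3 libraries against 3, cannot go below p = 0.1 and gave 0.1 wherever groups did not overlap.

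FPKM values of a gene step by what 1 read is worth, which gave back reads and totals, whole to within 0.001 of a read for 22176 of 22212 genes above 0 in at least 2 libraries (99.84%), the 49 members included. Recovered reads cover counting error only. Limma-voom ran on these reads as an alternative. The others were a pseudocount of 0.1, no filter, a filter of 5 FPKM, TPM, median-ratio scaling, quantile normalization, a replicate block, a fit without the trend, a fit of the compared groups alone, and leaving out each library in turn. Leaving out the library numbered 2 of every group was added after the data were seen, since A2 and D2 were highest in most members. The labels number the libraries 1 to 3 in each group. Deviations from group means of same-numbered libraries correlated at 0.142 to 0.174 in A and B, over 0.1 in 3 of 3 pairs, which was taken as pairing for B vs A. The main fit does not use this pairing, whereas the fit with a replicate block does. In each other pair of groups at least 1 of 3 pairs was below that limit. Over all 18 same-numbered pairs the mean was 0.125 (-0.171 to 0.579), over the 36 others -0.059, and 9 of 12 libraries correlated best with their own number. The fit and limma-voom were tested on simulated data.

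Members and gene lists were chosen with earlier results of these data known. Values per library are given, in each role, for the members with the highest and the lowest change in B vs A, for those past both thresholds in C vs B, and for the 3 with the smallest adjusted p in D vs A; of the other lists, the highest and the lowest gene in B vs A and those past both thresholds in C vs B are named. Other members, where named, were named after their values were seen. Promoters are RefSeq windows on GRCm38.p6, matched by symbol for 41 members. No window was given for Gins1, Gins2, Gins4, Pole, Gmnn, Mcm4, Prim2 and Rfc2. Tables came from Python 3.11.15 (scipy 1.17.1, numpy 2.4.6, pandas 2.3.3), plots from matplotlib 3.10.9.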

Additional observations from a re-analysis of the deposited data

Results flagged for a closer look

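The change with TCA differed between cells with and without Cu/ES, by the interaction test of limma at an adjusted p below 0.05, for 29 members, each with a negative interaction on the log2(FPKM + 1) scale. In the supply of nucleotides these were Rrm2 (-1.01), Dut (-0.91), Tyms (-0.90), Rrm1 (-0.69) and Tk1 (-0.51). Of the MCM ring they were Mcm2 (-0.89), Mcm5 (-0.78), Mcm4 (-0.62), Mcm6 (-0.43) and Mcm3 (-0.35). Among clamp loader and single-strand binding genes they were Rfc4 (-0.90), Rpa3 (-0.75), Rfc5 (-0.71), Rpa1 (-0.64), Rfc3 (-0.40) and Rfc2 (-0.39). Polymerase, primase and lagging-strand genes gave Prim1 (-0.85), Lig1 (-0.84), Pold2 (-0.78), Fen1 (-0.65), Pole (-0.52) and Pola1 (-0.42). The remaining ones were Uhrf1 (-1.04), Orc2 (-0.79), Gins1 (-0.59), Dnmt1 (-0.57), Chaf1a (-0.54), Clspn (-0.49) and E2f2 (-0.41).

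Of these, Mcm3, Mcm6, Rfc2, Rfc3, Pola1, Pole and Tk1 were not called under every scaling and fit. No explanation of the pattern was tested.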

How the results depend on the processing

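FPKM is relative to the library total, and no measure of RNA per cell was used here, so the direction of a member in B vs A and C vs D depends on the scaling. In B vs A, 35 members were higher and 8 lower with median-ratio scaling, and 35 and 10 with quantile normalization. In FPKM they numbered 20 and 24. Past both thresholds 26 were higher and 5 lower with median-ratio scaling and 6 lower with quantile normalization, against 12 and 12 in FPKM. Of all genes, 25.9% were then higher and 25.5% lower with the former scaling and 20.7% and 22.2% with the latter, against 10.1% and 53.0%. For C vs D the members higher and lower were 26 and 15 with median-ratio scaling and 24 and 13 with quantile normalization. Past both thresholds 20 were higher and 7 lower with the former and 7 lower with the latter. Of all genes, 25.9% were then higher and 27.2% lower with the former and 21.4% and 23.1% with the latter. In B vs A the sign turned for 16 members with median-ratio scaling (12 of them called in FPKM), for 16 with quantile normalization (12 called) and for 3 in TPM (2 called). With both of the former these were Mcm6 (1.0 and 0.37), Lig1 (1.01 and 0.46), Clspn (0.26 and 0.63), Uhrf1 (1.03 and 0.11), Pola2 (0.92 and 0.97), Prim2 (0.73 and 0.92), Pold1 (0.17 and 0.31), Pole (0.33 and 0.71), Rfc4 (0.80 and 0.38), Tyms (0.64 and 1.03) and, not called in FPKM, Gins2 (0.80 and 0.77), Prim1 (0.99 and 0.85), Rfc3 (1.06 and 0.98) and Rrm1 (1.11 and 0.24). With median-ratio scaling alone they were Gins4 (0.16) and Dnmt1 (0.34), with quantile normalization alone Timeless (0.08) and Gins3 (0.46), and in TPM Cdt1 (-0.24), E2f2 (-0.15) and Gins1 (-0.11). The cause was not tested beyond the shift of the median gene that these scalings remove by construction.

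In C vs B, members past both thresholds as lower numbered 6 with a pseudocount of 0.1, 0 with quantile normalization, 8 with limma-voom, 5 without the library numbered 2 of every group and 2 to 6 with single libraries left out (6 without C2), against 3. The count of members higher was 0 without a filter, 2 in TPM and 0 to 1 with single libraries left out (0 without B1, C1 or C3), against 1. In D vs A, the count of members higher was 1 with a pseudocount of 0.1, without a filter, in TPM, without the trend and in a fit of the 2 groups alone, and 1 to 3 with single libraries left out (1 without A1, A3, D1, D2 or D3), against 2. Members lower numbered 4 with a pseudocount of 0.1, 3 in TPM, 3 with median-ratio scaling, 12 without the library numbered 2 of every group and 2 to 10 with single libraries left out, against 7. Positive interactions numbered 1 in TPM and without the library numbered 2 of every group and 0 to 1 with single libraries left out (1 without B3, C2 or D2), against 0. Negative ones past both thresholds numbered 4 with a pseudocount of 0.1, 1 in TPM, 0 with quantile normalization, 4 with limma-voom and 0 to 3 with single libraries left out (0 without B2 or D2, 1 without A1, A3, C1 or C3), against 2. The cause of these changes was not tested.

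Among all genes tested, those past both thresholds numbered 4089 in B vs A and 4280 in C vs D with a filter of 5 FPKM, where fewer genes were tested, against 6692 and 6851. In C vs B they numbered 703 with a pseudocount of 0.1, 458 in TPM, 154 with quantile normalization and 779 with limma-voom, against 243, and in D vs A 95, 84 in TPM, 15 with median-ratio scaling, 104 with limma-voom and 14 with a filter of 5 FPKM, against 23. For the interaction they numbered 878 with a pseudocount of 0.1, 738 in TPM, 874 with limma-voom and 564 without the library numbered 2 of every group, against 370. Single members named in a comparison gave 518 values under alternatives, of which 492 kept their direction and side of the threshold, 17 lost the call and 9 turned.

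With the number as a replicate block, members higher and lower were 20 and 26 in B vs A, 1 and 39 in C vs B, 2 and 9 in D vs A, 16 and 29 in C vs D and 0 and 28 for the interaction. Calls that changed with the block were, in B vs A, those of Gins2 and Rrm1 (both gained), in D vs A those of Fen1, Mcm7 and Rrm1 (gained; adjusted p = 0.0381, 0.0318 and 0.0263) and Mcm2 (lost; 0.0502), in C vs D that of Gmnn (gained; 0.0287) and in the interaction that of Pola1 (lost; 0.0590). In C vs B no member's call changed with it.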

Other observations

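Beyond the 49 members, the interaction of TCA with Cu/ES was positive for 3 and negative for 30 of the 74 other replication genes tested by limma at an adjusted p below 0.05, with a median of -0.29. For the 30 genes of G2 and mitosis it was positive for 1 and negative for 15, with a median of -0.32, against 17.7% and 19.8% of all genes tested. In C vs D, 0 of these 30 genes were higher (20.9% of all genes tested) and 30 lower (71.5%). Their median was -2.52, while that of the 49 members was -0.67 and that of all genes -1.13. Of the 14 genes of the E2F and Rb lists, 1 rose and 1 fell in C vs B, against 20.4% and 23.6% of all genes tested, with a median of -0.03, that of all genes.

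Geminin (Gmnn) had 1 high library in both Cu/ES groups, B2 at 29.8 and C2 at 21.1 FPKM, beside 18.2 and 19.7 in the rest of group B and 10.6 and 11.8 in the rest of C. Gins2 likewise was at 7.53 FPKM in C2 beside 3.31 and 3.79.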
